A study of Mus musculus with 22 samples.

Results

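The bone morphogenetic protein (BMP) and growth differentiation factor (GDF) ligands described here are 9 genes: Bmp2, Bmp3, Bmp4, Bmp5, Bmp6, Bmp7, Gdf5, Gdf6 and Gdf10. They were found by exact match of the gene symbol, and each matched 1 of 34866 rows of the culture tables and 1 of 23911 rows of the whole-number cartilage table. Messenger RNA was measured in 22 mouse samples, of which 14 were primary chondrocyte cultures from knee articular cartilage of mice at postnatal day 3 to 5. The mutant cultures were labelled Prrx1-Cre;Dnmt1 flox/flox (cKO) and the controls Dnmt1 flox, so that both carried loxP-flanked Dnmt1, the gene of the DNA methyltransferase that maintains CpG methylation. Whether the controls carried Cre was not stated in the labels. Untreated cultures (day 0) gave 3 control and 3 cKO samples, and cultures given BMP2 at the labelled 100 ng/µl for 3 days (day 3) gave 4 control and 4 cKO samples. Cartilage of mice at postnatal day 5, treated with collagenase to remove connective tissue, gave 4 control (flox) and 4 cKO samples, with replicates 1 and 2 male and replicates 3 and 4 female in each. Prrx1-Cre acts in the limb bud mesenchyme, so the recombined cells include limb lineages other than cartilage. The labels call the culture replicates biological but do not tie them to animals. The p-values thus set each difference against the spread between these samples, which may not be the spread between animals.

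BMP and GDF ligands are secreted dimers of the TGF-beta superfamily. They bind type I receptors (such as Bmpr1a, Bmpr1b and Acvr1) together with type II receptors (such as Bmpr2), and the receptors phosphorylate Smad1, Smad5 and Smad9, which enter the nucleus with Smad4 and act on targets such as the Id genes. Secreted antagonists such as noggin hold the ligands away from the receptors, and Smad6 and Smad7 act as inhibitors inside the cell. By sequence the members fall into the pair Bmp2 and Bmp4, the group Bmp5, Bmp6 and Bmp7, the pair Gdf5 and Gdf6, and the pair Bmp3 and Gdf10. In the skeleton, ligands of the first groups drive the condensation and maturation of cartilage, Gdf5 and Gdf6 mark and shape joints, and Bmp3 counteracts the other ligands.

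Since the deleted gene acts on CpG dinucleotides, the sequence before the start site is shown for 3 members that span the range of CpG content, with every CpG in capitals. Of the 9 members, 4 matched the RefSeq promoter table (GRCm38.p6): Bmp4, Bmp5, Bmp6 and Gdf10. DNA methylation itself was not measured in the data used here. The sequences run 5′ to 3′ on the gene's strand and end just before the start site, except that the last base of the Bmp5 window, which lies in a GENCODE exon, is left out. Bmp4 lies on the minus strand at chr14:46390670-46390919, Bmp5 on the plus strand at chr9:75775115-75775363 and Gdf10 on the plus strand at chr14:33923337-33923586.
Bmp4: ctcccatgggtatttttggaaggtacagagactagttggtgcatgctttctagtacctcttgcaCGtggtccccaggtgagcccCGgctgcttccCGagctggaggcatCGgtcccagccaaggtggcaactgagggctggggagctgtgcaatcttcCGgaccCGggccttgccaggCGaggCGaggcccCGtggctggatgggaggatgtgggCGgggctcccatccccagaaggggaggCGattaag
Bmp5: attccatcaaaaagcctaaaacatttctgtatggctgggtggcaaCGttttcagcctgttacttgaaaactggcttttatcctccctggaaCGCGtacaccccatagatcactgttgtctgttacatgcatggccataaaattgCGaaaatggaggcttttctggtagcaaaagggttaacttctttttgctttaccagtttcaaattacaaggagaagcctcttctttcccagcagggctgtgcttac
Gdf10: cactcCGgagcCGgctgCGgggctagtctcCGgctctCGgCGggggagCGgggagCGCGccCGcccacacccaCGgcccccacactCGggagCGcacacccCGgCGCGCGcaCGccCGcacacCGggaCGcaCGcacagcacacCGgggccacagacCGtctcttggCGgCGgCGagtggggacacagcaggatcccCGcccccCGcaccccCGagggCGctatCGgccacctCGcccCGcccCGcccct
The Bmp6 window lies within the gene as GENCODE M21 annotates it, all of its bases in exons and after the annotated gene start, so it is not printed. The 250 bases before the RefSeq start held 4 CpG in Bmp5, 11 in Bmp4, 22 in Bmp6 and 35 in Gdf10, against a median of 6 over 32851 promoters. As many CpG or more were found in 62.2% of all promoters for the count of Bmp5, in 35.6% for Bmp4, in 14.8% for Bmp6 and in 2.97% for Gdf10. The palindrome GGCGCC, searched on both strands as a GC-rich Smad-binding sequence, was in none of the 4 windows and in 9.59% of all promoters. No relation of CpG content to the differences described next was tested.

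On GRCm38, and as annotated in GENCODE M21, the members are 9 protein-coding genes spread over 6 chromosomes. Bmp2 (ENSMUSG00000027358) lies at chr2:133552159-133562885, Bmp7 (ENSMUSG00000008999) at chr2:172868012-172940321 and Gdf5 (ENSMUSG00000038259) at chr2:155941023-155945367. Bmp4 (ENSMUSG00000021835) lies at chr14:46383520-46390669 and Gdf10 (ENSMUSG00000021943) at chr14:33923587-33937983. Bmp3 (ENSMUSG00000029335) lies at chr5:98854415-98884396, Bmp5 (ENSMUSG00000032179) at chr9:75775364-75900310, Bmp6 (ENSMUSG00000039004) at chr13:38345107-38500302 and Gdf6 (ENSMUSG00000051279) at chr4:9844372-9862345.

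The libraries held 41749546 to 51741669 counts at day 0, 14434320 to 18918905 at day 3, and 1100198 to 1888896 in cartilage. A level in CPM is a count scaled to the size of its library, and the floor of 3 counts stood for at most 0.0719, 0.208 and 2.73 CPM in these sets. Dnmt1 was lower in every cKO sample than in every control, with log2 fold changes of −2.44 (SE 0.0718) at day 0, −1.41 (SE 0.314) at day 3 and −1.66 (SE 0.201) in cartilage. The cKO library of replicate 4 at day 3 stood apart from its group: set against each of the other 3, its counts gave a chi-square of 123.9 to 138.4 per degree of freedom, and those 3 among themselves gave 7.42 to 10.9. Chondrocyte markers (8 genes, including Col2a1, Acan and Sox9) summed to 136000 to 144000 CPM in control and 48800 to 59600 CPM in cKO cultures at day 0. At day 3 the sum was 85900 to 107000 CPM in controls, 11200 to 15900 CPM in cKO replicates 1 to 3 and 1130 CPM in cKO replicate 4. Muscle markers (7 genes) summed to 0.0659 to 0.489 CPM in controls at day 3 and to 53.3 to 886 CPM in cKO cultures, where Myf5 alone was at the floor in every library. In cartilage the chondrocyte sum was 61800 to 93300 CPM in controls and 28100 to 57100 CPM in cKO samples. Markers of other tissue were present there too. Perichondrium, fibroblast and tendon markers had 47600 to 89000 CPM in control and 24900 to 56000 CPM in cKO samples (0 of 8 called). Osteoclast markers had 126 to 457 and 58.8 to 119 CPM (0 higher and 3 lower of 3 tested). Blood and macrophage markers had 161 to 780 and 21 to 351 CPM (0 higher and 2 lower of 3). Their part in the cartilage results was not tested. All of the control cartilage libraries were in pool 1 and all of the cKO libraries in pool 2, so pool and genotype cannot be told apart there.

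Per kilobase of exon, Bmp5 and Gdf10 were the leading ligand transcripts of untreated control cultures. Bmp5 had 15.3 ± 0.266 CPM per kilobase and Gdf10 had 10.2 ± 0.333 (SD, n = 3), and the ranges of these genes did not overlap. Gdf5 (7.61 ± 0.805), Bmp4 (6.69 ± 2.10) and Bmp6 (4.89 ± 0.398) followed, each overlapping its neighbour in the order. Bmp2 had 2.93 ± 0.174, Bmp3 1.84 ± 0.414 and Bmp7 1.52 ± 0.15 CPM per kilobase, and Gdf6 was lowest at 0.0999 ± 0.0334. In cKO cultures at day 0, Gdf5 moved up beside Bmp5: the levels were 19.6 ± 1.16 and 22.3 ± 1.58 CPM per kilobase with overlapping ranges, while Bmp6 came down to 1.38 ± 0.136. Summed over the 9 members, day 0 controls held 48.3 to 52.6 CPM per kilobase and day 0 cKO cultures 64.5 to 68.7. The day 3 controls held 33.6 to 68.0, cKO replicates 1 to 3 held 51.6 to 53.9, and cKO replicate 4 held 138.0. Gdf10 led in day 3 controls with 19.4 ± 7.30 CPM per kilobase (SD, n = 4), ahead of Bmp5 with 10.5 ± 1.94 and Bmp4 with 8.42 ± 2.99, all with overlapping ranges. These levels were not set side by side in cartilage, where only the 3′ ends of transcripts were sequenced.

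**Figure D1:**
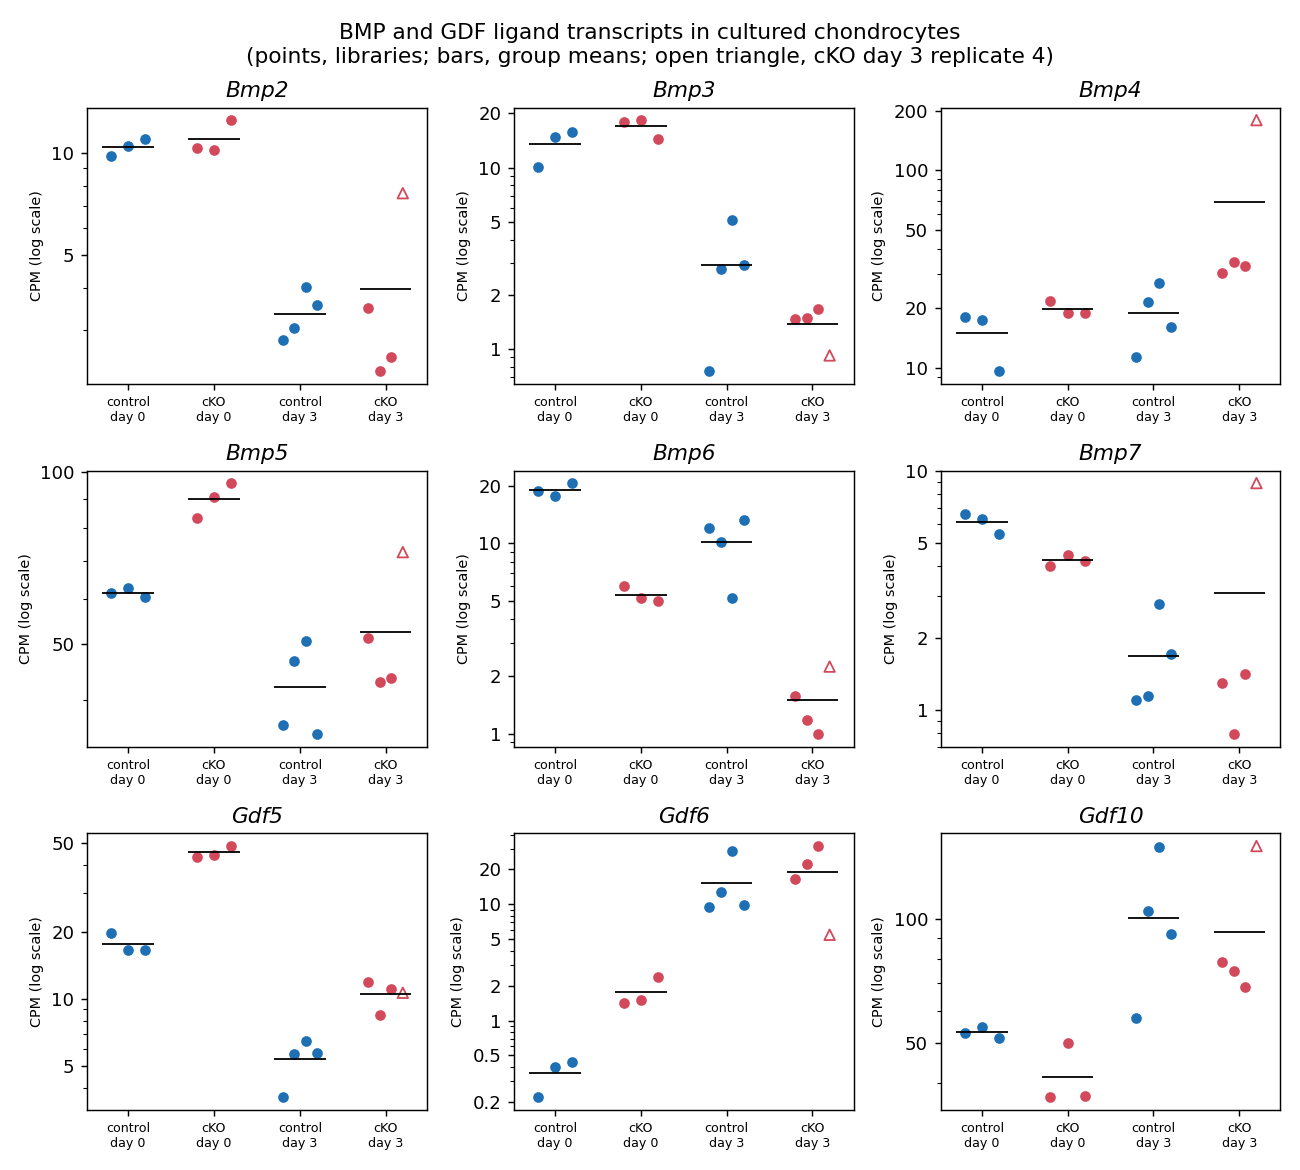
CPM of each ligand gene in the 14 culture samples on a log axis, by genotype and day. Points are libraries, bars are group means and the open triangle is cKO replicate 4 of day 3. Bmp6 lies lower and Gdf5 higher in cKO than in control libraries on both days, and the triangle stands far above the other cKO libraries for Bmp4 and Bmp7.

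The first comparison asked how the ligands differed between genotypes in untreated cultures. Of the 9 members, 6 were called at an edgeR adjusted p under 0.05 (Bmp5, Gdf5 and Gdf6 higher and Bmp6, Bmp7 and Gdf10 lower in cKO), beside 64.5% of all 15530 genes tested (33% higher and 31.6% lower). The members' share was thus close to that of all genes. The 2 genotypes did not overlap for 7 of 9 members, beside 70.4% of genes. Their median log2 fold change was 0.31, against 0.01 over all genes. In these bulk samples, fewer cells of a type and less RNA per cell cannot be told apart. Muscle markers (7 genes) summed to 0.162 to 0.444 CPM in control and 9.42 to 15.3 CPM in cKO cultures at day 0, with 2 higher of 3 tested. Myog, Myf5 and Myl1 were at the floor in every library of both genotypes. The part of the lower chondrocyte and the higher muscle marker sum in these differences was not tested.

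Bmp6, a ligand made by maturing chondrocytes, fell most. In replicates 1 to 3, the control level was 18.8, 17.7 and 20.8 CPM, while cKO cultures showed 5.98, 5.15 and 5.01 CPM. Each cKO sample was thus far below each control, and the means of 19.1 ± 1.55 and 5.38 ± 0.529 CPM (SD, n = 3 each) differed 3.56-fold (log2 fold change −1.83, SE 0.0927, adjusted p 4.15e-07). Bmp6 shares 224 exonic bases with Txndc5 on the opposite strand, a gene with 6705 to 30041 counts per culture. The strand setting of the counting was not given in the sources used here, so reads of the shared stretch cannot be told apart. Of 6 hypertrophic chondrocyte markers, 1 was called higher and 3 lower, with sums of 1450 to 1510 CPM in control and 968 to 1090 CPM in cKO cultures, and their part in the Bmp6 result was not tested. Txndc5 itself was lower in cKO cultures, with a log2 fold change of −0.65 (adjusted p 6.67e-07).

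Bmp7, which also acts in kidney and eye development, had 6.62, 6.30 and 5.45 CPM in controls and 4.01, 4.46 and 4.19 CPM in cKO cultures. The groups did not overlap, and the log2 fold change was −0.54 (SE 0.105, adjusted p 0.00153). Bmp5, the gene mutated in short-ear mice, went the other way. Its control values of 61.5, 62.7 and 60.5 CPM lay closely together, and the cKO values of 83.1, 90.6 and 95.8 CPM were all higher (log2 fold change 0.54, SE 0.0498, adjusted p 1.36e-05). Within the group of Bmp5, Bmp6 and Bmp7, Bmp6 and Bmp7 were thus lower and Bmp5 higher in cKO cultures, and the difference was largest for Bmp6.

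The joint ligands rose. Gdf5, expressed in the interzone where joints form, had 19.8, 16.6 and 16.6 CPM in controls and 43.4, 44.4 and 48.5 CPM in cKO cultures, with no overlap. Its means of 17.7 ± 1.87 and 45.4 ± 2.69 CPM (SD, n = 3 each) differed 2.56-fold (log2 fold change 1.36, SE 0.0772, adjusted p 7.75e-07). Gdf6 was the scarcest member, with 0.218, 0.401 and 0.439 CPM in controls, from 10 to 19 counts, and 1.42, 1.52 and 2.37 CPM in cKO cultures, from 59 to 122 counts. All cKO samples lay above all controls, and the fold change was 5.00 (log2 fold change 2.32, SE 0.31, adjusted p 0.000147). The joint surface and interzone markers (6 genes) did not move as 1 group. Prg4 was called higher (1.46, adjusted p 2.36e-06), and 3 were called lower: Sfrp5 (−5.07, adjusted p 8.46e-07), Tspan15 (−0.71, adjusted p 0.0276) and Erg (−0.36, adjusted p 0.0382). They summed to 60.9 to 75.2 CPM in control and 47.7 to 69.5 CPM in cKO cultures, and their part in these results was not tested.

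Gdf10, also known as BMP3b, had 53.1, 54.8 and 51.4 CPM in controls and 36.9, 49.95 and 37.2 CPM in cKO cultures. The cKO values were lower without overlap, by a log2 fold change of −0.36 (SE 0.105, adjusted p 0.0136). Its relative Bmp3 had 10.1, 14.8 and 15.9 CPM in controls and 18.0, 18.4 and 14.4 CPM in cKO cultures, groups that overlapped (log2 fold change 0.31, 95% interval −0.05 to 0.67, adjusted p 0.114, and called by DESeq2 with adjusted p 0.0477). Bmp4 had 18.0, 17.5 and 9.61 CPM in controls and 21.9, 19.0 and 18.9 CPM in cKO cultures (0.40, 95% interval −0.05 to 0.85, adjusted p 0.105). Bmp2 was nearly level, with 9.77, 10.5 and 11.0 CPM in controls and 10.3, 10.2 and 12.5 CPM in cKO cultures (0.08, 95% interval −0.13 to 0.29, adjusted p 0.484). With all 14 cultures in 1 fit, the calls of Bmp7 (adjusted p 0.531) and Gdf10 (adjusted p 0.395) were lost. Without cKO replicate 3, Bmp3 was called (0.42, adjusted p 0.0496), and the log2 fold change of Bmp2 was −0.02 (adjusted p 0.824).

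**Figure D2:**
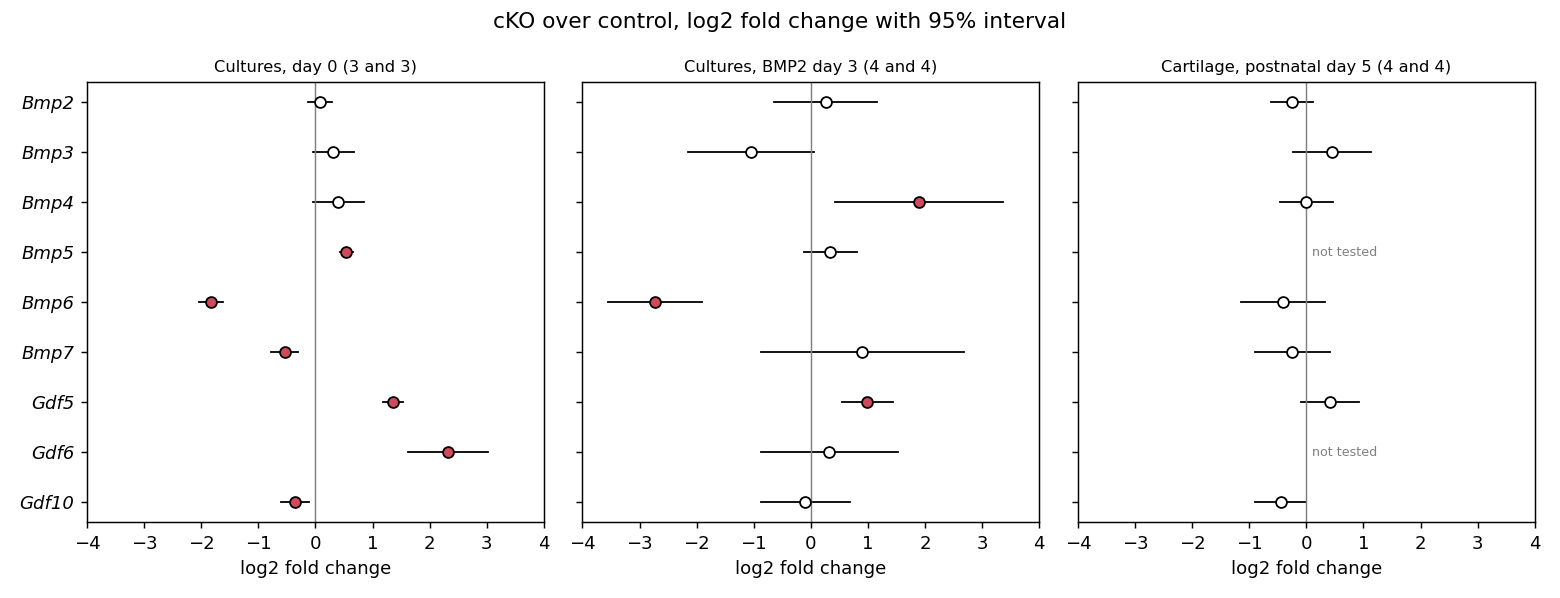
Log2 fold change of cKO over control with its 95% interval for each ligand at day 0, at day 3 and in cartilage, where filled points passed an adjusted p of 0.05. Filled points number 6 at day 0, 3 at day 3 and 0 in cartilage, and only Bmp6 and Gdf5 are filled in both cultures with the same sign.

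The next comparison asked how the genotypes differed after 3 days of BMP2. Of the 9 members, 3 were called: Bmp4 and Gdf5 higher and Bmp6 lower in cKO, beside 48.1% of 13924 genes (25.5% higher and 22.6% lower). The members' median log2 fold change was 0.32, against 0.01 over all genes. Without cKO replicate 4, the members called were again 3, with Bmp4, Gdf5 and Bmp6 called in the same directions. In that fit 7808 genes were called, against 6692 with all libraries. The genotypes did not overlap for 3 of 9 members, beside 47.9% of genes. The part of the lower chondrocyte and higher muscle marker sums in these differences was not tested.

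In replicates 1 to 4, Bmp6 stood at 12.1, 10.2, 5.17 and 13.2 CPM in controls and at 1.57, 1.19, 0.991 and 2.25 CPM in cKO cultures. No cKO library reached the lowest control, and the means of 10.2 ± 3.55 and 1.50 ± 0.555 CPM (SD, n = 4 each) differed 6.67-fold (log2 fold change −2.74, SE 0.362, adjusted p 0.000463). Leaving out cKO replicate 4 gave −3.02 (adjusted p 8.94e-05). The log2 fold change of Txndc5 at day 3 was −0.53 (adjusted p 0.000507). The hypertrophic chondrocyte markers (6 genes) did not move as 1 group at day 3: Ihh (−2.88, adjusted p 0.000265) and Panx3 (−2.37, adjusted p 0.000552) were lower in cKO, and Spp1 (3.52, adjusted p 8.07e-05), Mmp13 (2.71, adjusted p 0.00088), Ibsp (2.58, adjusted p 0.0117) and Col10a1 (3.28, adjusted p 0.0402) were higher. Without cKO replicate 4, 3 were higher and 2 lower. Their sum was 398 to 837 CPM in control and 3960 to 4690 CPM in cKO cultures, where most of it was Spp1. The part of these markers in the Bmp6 result was not tested.

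Gdf5 had 3.63, 5.65, 6.49 and 5.74 CPM in controls and 11.98, 8.44, 11.1 and 10.7 CPM in cKO cultures. Each cKO library was above each control, with a fold change of 1.98 (log2 fold change 0.98, SE 0.197, adjusted p 0.00363). At this time the joint surface and interzone markers summed to 129 to 283 CPM in control and 836 to 870 CPM in cKO cultures. Most of the sum was Dkk3, with means of 147 and 740 CPM. Of the 6 markers, 2 were called higher and 2 lower, and their part in the result was not tested. Gdf6 had 9.46, 12.8, 28.8 and 9.96 CPM in controls and 16.5, 22.2, 31.8 and 5.48 CPM in cKO cultures. Its groups overlapped widely (0.33, 95% interval −0.87 to 1.52, adjusted p 0.638).

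Bmp4, a close relative of the added ligand, had 11.3, 21.6, 26.8 and 16.0 CPM in controls and 30.2, 34.3, 32.7 and 179.9 CPM in cKO cultures. The cKO libraries were all above the controls, but replicate 4 alone lay far above the rest, and the log2 fold change was 1.90 (SE 0.647, adjusted p 0.0387). Without that library the cKO mean was 32.4 ± 2.10 CPM (SD, n = 3) and the log2 fold change 0.77 (SE 0.235, adjusted p 0.0206). With it, the call was lost when any 1 of the control libraries was left out (log2 fold changes 1.71 to 2.11, adjusted p 0.0558 to 0.0962), and DESeq2 returned no adjusted p for this gene.

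Bmp7 also hinged on that library. Its controls had 1.097, 1.14, 2.76 and 1.72 CPM and the cKO cultures 1.29, 0.79, 1.41 and 8.88 CPM. The log2 fold change was 0.90 (SE 0.778, adjusted p 0.369) with all libraries and −0.53 (SE 0.391, adjusted p 0.277) without cKO replicate 4, so that its direction was not settled. Bmp2, whose protein was added to the medium, had 2.81, 3.04, 4.02 and 3.56 CPM in controls and 3.49, 2.27, 2.51 and 7.61 CPM in cKO cultures. Its log2 fold change was 0.26 (adjusted p 0.614), and −0.29 (adjusted p 0.302) without cKO replicate 4.

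Bmp5 had 36.1, 46.7, 50.6 and 34.8 CPM in controls and 51.3, 42.95, 43.6 and 72.5 CPM in cKO cultures, with overlap (0.34, 95% interval −0.12 to 0.80, adjusted p 0.198). Gdf10 had 57.7, 104.9, 149.6 and 91.9 CPM in controls and 78.8, 74.9, 68.6 and 150.8 CPM in cKO cultures, again with overlap (−0.10, 95% interval −0.87 to 0.68, adjusted p 0.838). The sign of Gdf10 turned when control replicate 3 (0.15), cKO replicate 2 (0.01) or cKO replicate 3 (0.03) was left out, and that of Gdf6 without cKO replicate 3 (−0.04). Without cKO replicate 4, Gdf10 had −0.45 (SE 0.257, adjusted p 0.165) and Bmp5 had 0.12 (SE 0.141, adjusted p 0.484), neither called. Bmp3 had 0.754, 2.77, 5.17 and 2.90 CPM in controls and 1.46, 1.48, 1.67 and 0.922 CPM in cKO cultures. All cKO libraries lay below 3 of the 4 controls, and control replicate 1 was the lowest of all (−1.05, SE 0.485, adjusted p 0.105). Without control replicate 1, Bmp3 was called (−1.37, adjusted p 0.0103), and it was also called with all 14 cultures in 1 fit (−1.07, adjusted p 0.0379).

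**Figure D3:**
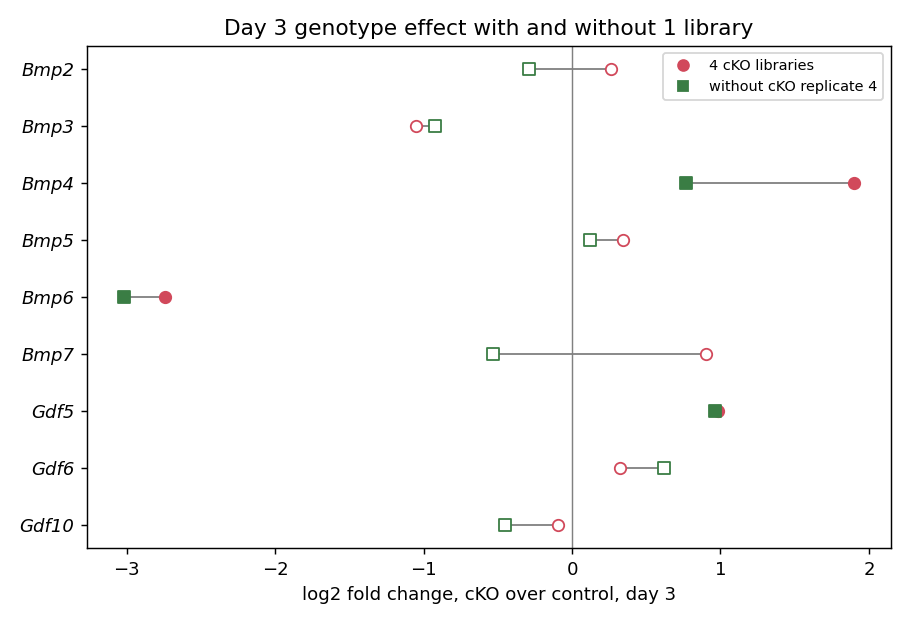
Log2 fold change of cKO over control at day 3 for each ligand, with 4 cKO libraries (circles) and without cKO replicate 4 (squares), where filled marks passed an adjusted p of 0.05. Bmp4, Bmp6 and Gdf5 are filled both ways, Bmp4 moves from 1.90 to 0.77, and Bmp2 and Bmp7 cross 0.

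In cartilage taken from the animal, no member was called. Of the 9, 7 passed the expression filter and 0 were called by edgeR, beside 6.19% of 8793 genes (3.15% higher and 3.04% lower). Control and cKO values overlapped for all 9 members, while 13.5% of the genes tested had no overlap. At an unadjusted p under 0.05 the count was also 0 of 7, against 21.7% of all genes, and DESeq2 called 0. The members' median log2 fold change was −0.24, against 0.01 over all genes. Bmp5 and Gdf6 did not pass the filter.

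Gdf5 and Bmp6, the members called in both sets of cultures, had differences of the same sign here, with intervals that held 0. In replicates 1 to 4, Gdf5 stood at 18.8, 11.95, 14.7 and 20.1 CPM in controls and at 27.7, 22.7, 16.1 and 23.3 CPM in cKO samples, with overlap (0.42, 95% interval −0.10 to 0.93, adjusted p 0.333). Bmp6 had 7.51, 9.39, 14.7 and 9.78 CPM in controls and 5.04, 12.2, 7.14 and 6.03 CPM in cKO samples (−0.41, 95% interval −1.14 to 0.32, adjusted p 0.513). The estimated counts of the same samples gave a larger difference for Bmp6 that was not called either (−0.92, SE 0.376, adjusted p 0.167). Txndc5, which shares 224 exonic bases with Bmp6, had up to 491 counts in a cartilage library and a log2 fold change of −0.31 (adjusted p 0.168). The part of this overlap was not tested. Hypertrophic chondrocyte markers summed to 1040 to 2120 CPM in control and 177 to 1740 CPM in cKO cartilage, with 0 of 6 called higher and 4 lower, and their part was not tested. Whether the genotype difference of cartilage and that of cultures differ was not tested, since their libraries were made by other methods.

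Gdf10 came nearest to a call. Its controls had 69.8, 64.9, 88.97 and 83.9 CPM and the cKO samples 54.6, 85.7, 35.7 and 51.7 CPM (−0.45, SE 0.211, adjusted p 0.231). Only cKO replicate 2 lay within the control range, and without it Gdf10 was called lower (−0.71, SE 0.182, adjusted p 0.0281). In cKO replicate 2 the hypertrophic chondrocyte markers summed to 1740 CPM, while replicates 1, 3 and 4 had 443, 250 and 177 CPM. The part of this difference was not tested. The same library held the highest value of Bmp3, which had 15.8, 19.6, 13.8 and 10.3 CPM in controls and 12.6, 41.1, 12.5 and 15.5 CPM in cKO samples (0.45, adjusted p 0.439, and −0.04 without that library).

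Bmp2 was abundant in cartilage, with 198.1, 148.5, 191.7 and 150.3 CPM in controls and 145.3, 210.8, 106.2 and 127.5 CPM in cKO samples, and the groups overlapped (−0.25, 95% interval −0.61 to 0.12, adjusted p 0.425). Bmp4 ranged from 14.3 to 25.7 CPM in controls and from 17.5 to 23.2 CPM in cKO samples. Its log2 fold change was nearest 0 of the 7 (95% interval −0.46 to 0.47, adjusted p 0.994). Bmp7 had 21.0, 29.0, 16.5 and 15.96 CPM in controls and 7.56, 18.4, 18.7 and 24.1 CPM in cKO samples (−0.24, 95% interval −0.90 to 0.41, adjusted p 0.687, and 0.06 without cKO replicate 1). Gdf6 had 0 to 3 counts in every library, at or under the floor, so no fold is given.

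Bmp5 could not be read from the whole-number counts alone. That table held 48 counts of Bmp5 over the 8 libraries, from 1 to 11 each, and the estimated counts held 605, from 45 to 107 each. The ratio of 12.6 compares with 1.25 to 1.90 for the other 8 members and with a median of 1.38 over 11678 genes that had 20 or more whole-number counts, of which 1.64% had a ratio at least as high. The annotation (GENCODE M21, GRCm38) places the last exon of Bmp5, 1878 bases at chr9:75898433-75900310, entirely within an exon of the antisense gene Gm26903 at chr9:75897843-75901863. Gm26903 has a row in the whole-number table, with at most 4 counts in any library, and none in the estimated counts. The part of this overlap in the ratio was not tested. In the estimated counts the controls had 34.6, 48.4, 46.3 and 34.9 CPM and the cKO samples 38.6, 25.4, 33.4 and 44.8 CPM of Bmp5, which overlapped (log2 fold change −0.20, SE 0.197, adjusted p 0.598).

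**Figure D4:**
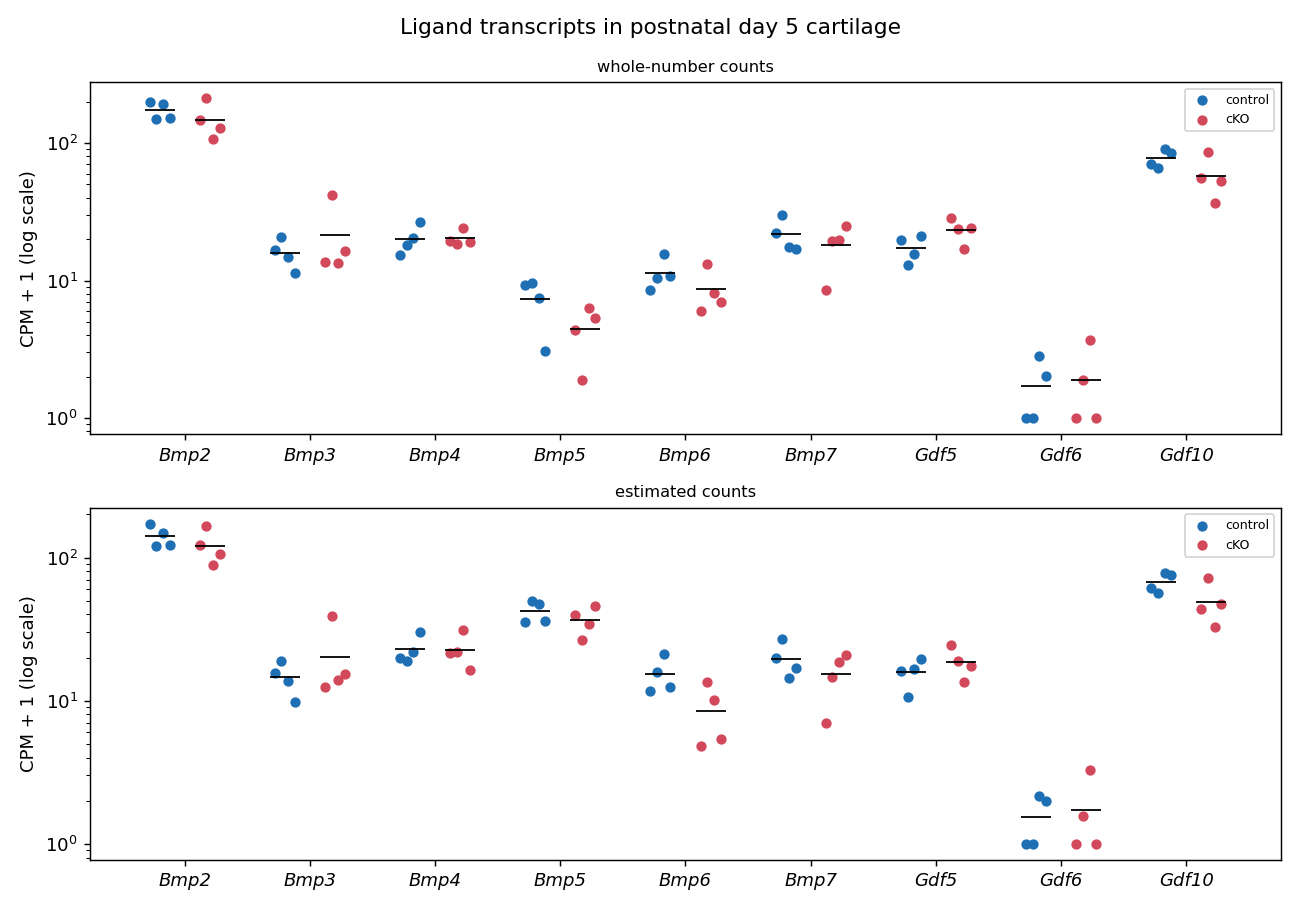
CPM plus 1 of each ligand in the 8 cartilage samples on a log axis, from the whole-number counts (top) and the estimated counts (bottom). Points are libraries and bars are group means. Bmp5 is the member that stands at different heights in the panels, and control and cKO points overlap for all 9 genes in both.

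Since mice of both sexes were sampled, the genotype difference of females was also set against that of males in cartilage. None of the 7 members tested was called by edgeR, beside 0.0103% of 9687 genes, and DESeq2 called 0. At an unadjusted p under 0.05 there were 2 members, beside 4.83% of all genes. Bmp7 was lower in the cKO males (7.56 and 18.4 CPM, against 21.0 and 29.0 in control males) and higher in the cKO females (18.7 and 24.1 CPM, against 16.5 and 15.96). The difference of the log2 fold changes was 1.343 (SE 0.525, adjusted p 0.994). Gdf10 was lower in the cKO females (35.7 and 51.7 CPM, against 88.97 and 83.9 in control females), while the cKO males (54.6 and 85.7 CPM) lay on both sides of the control males (69.8 and 64.9 CPM). Its difference was −1.04 (SE 0.341, adjusted p 0.871), with 2 samples in each group.

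The change from untreated day 0 to day 3 of BMP2 was described in each genotype. Day, treatment and sequencing depth changed together and cannot be told apart. In controls 8 of 9 members were called, 6 lower and 2 higher at day 3, beside 56.9% of 14909 genes (28.8% lower and 28.1% higher). In cKO cultures 8 of 9 were called, 5 lower and 3 higher, beside 62.2% (29.8% lower and 32.4% higher), and without cKO replicate 4 all 9 were called, 6 lower and 3 higher, while the genes called went from 9274 to 9963. The members' median log2 change was −0.91 in control and −0.77 in cKO cultures, against 0 and 0.02 over all genes. The values of the 2 days did not overlap for 8 of 9 members in each genotype, beside 64% of genes in control and 62.5% in cKO cultures. The sample values are those given for each day above.

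Gdf6 rose most. Its mean went from 0.353 ± 0.118 (SD, n = 3) to 15.2 ± 9.17 CPM (SD, n = 4) in controls and from 1.77 ± 0.522 to 19.0 ± 11.0 CPM in cKO cultures, with every day 3 library above every day 0 library. The log2 changes were 5.42 (SE 0.675, adjusted p 2.11e-05) and 3.42 (SE 0.569, adjusted p 0.000192). Gdf5, its closest relative among the members, went the other way, from 17.7 to 5.38 CPM in controls and from 45.4 to 10.5 CPM in cKO cultures. These were log2 changes of −1.71 (SE 0.16, adjusted p 1.92e-06) and −2.11 (SE 0.153, adjusted p 2.38e-07).

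Transcripts of the added ligand fell in both genotypes: Bmp2 by log2 changes of −1.63 (SE 0.319, adjusted p 0.000749) in control and −1.48 (SE 0.314, adjusted p 0.00117) in cKO cultures. Bmp3 fell from 13.6 ± 3.07 to 2.90 ± 1.80 CPM in controls (−2.22, SE 0.374, adjusted p 0.000246) and from 16.9 ± 2.18 to 1.38 ± 0.322 CPM in cKO cultures (−3.60, SE 0.4, adjusted p 7.3e-06). Bmp5 and Bmp6 also fell. Bmp5 had −0.55 (SE 0.171, adjusted p 0.0149) in control and −0.77 (SE 0.17, adjusted p 0.00152) in cKO cultures. Bmp6 had −0.91 (SE 0.263, adjusted p 0.00982) and −1.85 (SE 0.3, adjusted p 0.000159).

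Gdf10 rose, by 0.93 (SE 0.307, adjusted p 0.0201) in control and 1.17 (SE 0.31, adjusted p 0.00518) in cKO cultures. In controls its call was lost without any 1 of the day 0 replicates or without day 3 replicate 3 (0.68 to 0.95, adjusted p 0.0505 to 0.0658). Bmp7 was called lower in controls (−1.86, SE 0.644, adjusted p 0.0249). That call was lost without day 0 replicate 1 or 2 or without day 3 replicate 1, 2 or 4 (−1.87 to −1.71, adjusted p 0.0504 to 0.0662), and DESeq2 returned no adjusted p. In cKO cultures Bmp7 had −0.46 (adjusted p 0.538) with all libraries and was called at −1.86 (adjusted p 5.14e-05) without replicate 4. Bmp4 was not called in controls (0.33, 95% interval −0.92 to 1.59, adjusted p 0.65). In cKO cultures it rose by 1.79 (SE 0.588, adjusted p 0.0176), and by 0.70 (SE 0.253, adjusted p 0.0253) without replicate 4. The cKO call was lost without day 0 replicate 2 (adjusted p 0.0553), without day 0 replicate 3 (adjusted p 0.0558), or with the cKO cultures fitted alone (adjusted p 0.0657).

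**Figure D5:**
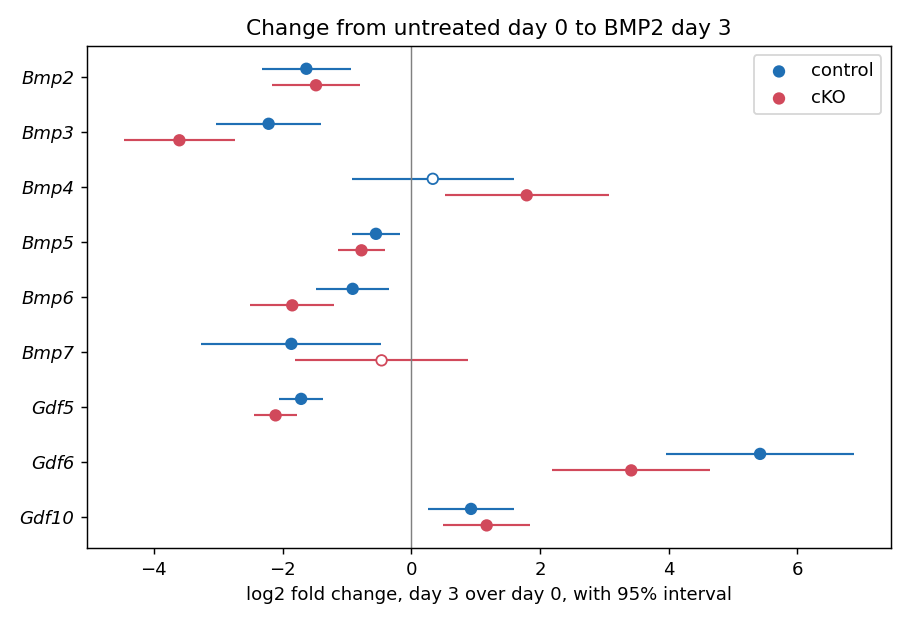
Log2 change from untreated day 0 to BMP2 day 3 with its 95% interval for each ligand, in control (blue) and cKO (red) cultures, where filled points passed an adjusted p of 0.05. Gdf6 lies far to the right and Bmp2, Bmp3, Bmp5, Bmp6 and Gdf5 to the left in both genotypes, and the open points are Bmp4 in control and Bmp7 in cKO cultures.

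Whether the genotype difference changed with day was tested as an interaction. None of the 9 members was called by edgeR, beside 16.8% of 14909 genes (9.93% higher and 6.89% lower). At an unadjusted p under 0.05 there were 3, beside 30.8% of all genes: Bmp3 (−1.39, SE 0.549, adjusted p 0.106), Bmp6 (−0.94, SE 0.403, adjusted p 0.134) and Gdf6 (−2.0, SE 0.826, adjusted p 0.119). A negative value means that cKO relative to control was lower at day 3 than at day 0. Gdf6 was 5.00-fold higher in cKO at day 0 and 1.25-fold higher, not called, at day 3. DESeq2 called 1 member, Gdf6 (−2.02, adjusted p 0.034). Without cKO replicate 4, Bmp6 was called (−1.19, SE 0.386, adjusted p 0.0351). It was also called without control day 3 replicate 3 (−1.16, adjusted p 0.02), and without control day 3 replicate 1 the called members were Bmp3 (−1.69, adjusted p 0.00942) and Gdf5 (−0.54, adjusted p 0.0486). Without cKO replicate 4 the value of Bmp2 went from 0.15 to −0.38 and that of Gdf10 from 0.24 to −0.09, neither called. The values of Bmp4 (1.46) and Bmp7 (1.40) came down to 0.36 and 0.0019 without it.

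Across the 14 cultures, the members with the most similar profiles were Bmp5 and Gdf5 (Pearson r 0.908 of log2 CPM), followed by Bmp2 and Bmp7 (0.904) and by Bmp2 and Bmp5 (0.862). The most opposed were Bmp2 and Gdf6 (−0.874). These values describe 4 groups that differ in genotype, day and depth, and carry no test. Among 11864 genes whose log2 CPM averaged 1 or more, those most like Bmp6 were Sox8 (0.986), Arl10 (0.978) and Fkbp10 (0.973). Those most like Gdf6 were Rfx5 (0.981), Gstt3 (0.98) and Samd14 (0.979), and those most like Gdf5 were Reps1 (0.973) and S100a10 (0.969). The profile of Bmp2 was closest to Ankrd52 (0.986), Tmem245 (0.976) and Pea15a (0.972), and that of Bmp7 to Lamc1 (0.943), Pea15a (0.941) and Ptpn11 (0.92). Bmp5 was most like Myo5a (0.973) and Tln1 (0.969), and Bmp3 most like Zfp57 (0.965), Eif2ak4 (0.962) and Celsr2 (0.962). Bmp4 was most like Rb1cc1 (0.957), Igfbp7 (0.943) and Pacs2 (0.939), and Gdf10 most like Zfp319 (0.973), Tns1 (0.956) and Col12a1 (0.954).

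The other genes of the pathway were counted by lists, and up to 4 genes of each list, those with the smallest adjusted p at day 3, were named. Beside these counts, the share of all genes called was 64.5% at day 0, 48.1% at day 3 and 6.19% in cartilage. Without cKO replicate 4, the genes called at day 3 went from 6692 to 7808. Among secreted antagonists and modulators, 15 of 16 were tested in the cultures: 6 were higher and 7 lower in cKO at day 0, and 6 higher and 4 lower at day 3 (6 and 7 without cKO replicate 4). Nbl1 (3.81, adjusted p 0.000148), a secreted antagonist, and Bmper (2.62, adjusted p 0.000363), a secreted modulator, were higher at day 3. Nog, the gene of noggin, was lower in cKO at both times, by −0.62 (adjusted p 0.000202) before and by −1.67 (adjusted p 0.000643) after BMP2, when controls had 65.6 to 126 CPM and cKO cultures 22.4 to 40.4 CPM. In cartilage 0 of 11 antagonists tested were called by edgeR, and the log2 fold change of Nog was −0.80 (adjusted p 0.112).

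All 11 receptors and co-receptors were tested in cultures, with 5 higher and 2 lower in cKO at day 0 and 4 higher and 1 lower at day 3 (4 and 4 without cKO replicate 4). The co-receptor Eng (endoglin) was higher in untreated (1.79, adjusted p 3.07e-07) and BMP2-treated cultures (2.37, adjusted p 0.000827) and also in cartilage (0.81, adjusted p 0.011), where it was the 1 receptor called of 8 tested. Endothelial markers (6 genes), which Eng is known to accompany, had low sums in cultures that were higher in cKO. At day 0 they summed to 1.16 to 1.46 CPM in control and 3.8 to 4.27 CPM in cKO cultures, with 2 higher of 2 tested. At day 3 they summed to 0.36 to 1.17 and 1.58 to 2.48 CPM, with 0 called of 1 tested. Cdh5 and Emcn were then at the floor in every library. In cartilage these markers summed to 70.5 to 129 CPM in control and 47.4 to 98 CPM in cKO samples (0 called of 5 tested). Their part in the Eng result was not tested. The type I receptors Acvr1 (0.78, adjusted p 0.000118) and Bmpr1b (1.03, adjusted p 0.00102), and the co-receptor Tgfbr3 (1.41, adjusted p 0.0249), were higher at day 3. Bmpr1a, a type I receptor that was named after its values were seen, was lower at day 0 (−0.29, adjusted p 2.25e-05) and at day 3 (−0.24, adjusted p 0.0365). Its day 3 means were 167 CPM in control and 140 CPM in cKO cultures, against 3.68 and 7.46 CPM for Bmpr1b.

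Among the 12 Smads and inhibitors inside the cell, 8 were higher and 2 lower in cKO at day 0, and 7 higher and 2 lower at day 3. Smad6, an inhibitor, was higher by 0.76 at day 0 (adjusted p 3.75e-06) and by 1.65 after BMP2 (adjusted p 3.03e-05). For Smad7 these log2 fold changes were 1.09 (adjusted p 1.39e-05) and 2.33 (adjusted p 0.000447). Skil (1.79, adjusted p 0.00235) and Smurf2 (0.85, adjusted p 0.00318), which restrain Smad signalling, were higher at day 3 as well. Bambi, a decoy receptor on the same list that was named after its values were seen, was lower at day 0 (−0.98, adjusted p 7.12e-07) and had 0.28 at day 3 (adjusted p 0.389). Of the 12 target genes, 7 were higher and 1 lower at day 0, and 6 were higher and 0 lower at day 3 (7 and 0 without cKO replicate 4). Id3 had 95.3 to 129 CPM in controls and 202 to 252 CPM in cKO cultures at day 3 (1.14, adjusted p 0.0001). Atoh8 (1.54, adjusted p 0.000504), Sp7 (1.48, adjusted p 0.00274) and Msx2 (2.26, adjusted p 0.00613, and 1.62 without cKO replicate 4) were higher too. Osteoblast markers, among them Sp7, moved with them at day 3, with 5 of 6 called higher. They summed to 3710 to 5090 CPM in control and 6820 to 9110 CPM in cKO cultures. Most of the sum was Col1a1 (means 4260 and 7160 CPM), which was also counted as a marker of perichondrium, fibroblast and tendon. The part of the osteoblast markers was not tested. The median log2 fold change of the target genes was 0.77 at day 3, against 0.01 over all genes, and −0.30 in cartilage, where 0 were higher and 1 lower of 9 tested.

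Of the 22 other ligands of the superfamily, 16 were tested at day 0 (7 higher and 2 lower in cKO) and 10 at day 3 (5 higher and 1 lower, or 7 and 2 of 11 without cKO replicate 4). Inhba, the gene of an activin subunit, had 12.4 to 16.9 CPM in control and 49.8 to 69.6 CPM in cKO cultures at day 0 (2.14, adjusted p 2.41e-06). At day 3 it had 46 to 59.8 CPM in controls and 123 to 1180 CPM in cKO cultures (2.97, adjusted p 0.0125, and 1.48 without cKO replicate 4). Inhbb (2.54, adjusted p 0.01, and 1.50 without that library), Gdf11 (1.48, adjusted p 0.00141) and Tgfb1 (1.18, adjusted p 0.00744) were higher at day 3. Among the proteases that process these ligands, 2 were higher and 3 lower of 6 tested at day 0, and 2 higher and 1 lower at day 3 (2 and 2 without cKO replicate 4). Pcsk6 had 127 to 178 CPM in controls and 45.5 to 49.3 CPM in cKO cultures at day 3 (−1.62, adjusted p 1.49e-05), with −0.02 (adjusted p 0.916) at day 0. Pcsk5 changed sides, from −1.27 (adjusted p 0.000123) at day 0 to 0.90 (adjusted p 0.0355) at day 3, with an interaction of 2.14 (adjusted p 0.00343). Pcsk7 was higher at both times (0.38, adjusted p 0.000114, and 0.46, adjusted p 0.00221), and Bmp1, a procollagen and chordin protease despite its name, had −0.15 (adjusted p 0.00539) at day 0 and 0.41 (adjusted p 0.257) at day 3.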

How the data were processed

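Libraries were made from total RNA with a directional kit (cultures) or with barcoded 3′ BRB-seq and molecular identifiers (cartilage), per the labels' protocols. For the cultures, the authors deposited an estimated count for each gene, which was rounded to a whole number here. For cartilage they deposited both whole-number counts (used here as the main values) and estimated counts (an alternative). Per the submitters' processing notes, the build was GRCm38 and the cartilage tools included UMI-tools 1.1.1, Trim Galore 0.6.7, HISAT2 2.2.1, featureCounts 2.0.1 and DESeq2 1.34.0. The aligner and counter of the cultures are not given in the sources used here. Annotation came from GENCODE M21 (34582 of 34866 culture identifiers and 23884 of 23911 cartilage identifiers matched), and promoters from RefSeq.

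Comparisons were fitted in edgeR 4.0.16 (R 4.3.3) by quasi-likelihood, after TMM normalisation and a filterByExpr minimum of 10 counts. P-values were adjusted by Benjamini and Hochberg's method across every gene in the fit, and those under 0.05 are called. They are from edgeR unless another tool is named. Genotype was fitted on the samples of each setting, with sex as a covariate in cartilage, and the change with day and the interactions on all samples of cultures or cartilage. CPM were scaled by TMM factors, with the 14 cultures scaled together and cartilage on its own. Floors cover counting error only. DESeq2 1.42.0, other scaling and filters, a block for the replicate number and the omission of each library were alternatives, and the scripts were tested on simulated data. All 9 members were described, with up to 3 genes most correlated with each and up to 4 genes per pathway list by the smallest adjusted p at day 3; a few genes that met these rules are not reported here. The members and lists were chosen with earlier results of these data known.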

Additional observations from a re-analysis of the deposited data

Results flagged for a closer look

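Each member in each group of 4 samples gave 1 set of values, 36 in all. The sets share libraries and are not independent, while Dixon's 95% critical value is passed by chance in about 1 in 20 independent sets. In 5 of the 36 sets, 1 library lay so far from the other 3 that its gap exceeded that value. The cKO culture of replicate 4 at day 3 gave 3 of them: Bmp4 at 179.9 CPM, against 30.2 to 34.3 CPM in the other cKO libraries, Bmp7 at 8.88 CPM, against 0.79 to 1.41 CPM, and Gdf10 at 150.8 CPM, against 68.6 to 78.8 CPM. The same library had the lowest Dnmt1 of its group, 10.9 CPM. Gdf6 reached 28.8 CPM in control replicate 3 at day 3, while the other controls had 9.46 to 12.8 CPM. Bmp3 reached 41.1 CPM in cKO replicate 2 of cartilage, while the other cKO samples had 12.5 to 15.5 CPM.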

How the results depend on the processing

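Besides the fits that leave out 1 library, the alternatives gave 390 results for single members that kept direction and call, 5 that lost a call, 6 that gained one and 5 that changed sign. All 5 changes of sign were Bmp4 in cartilage, whose log2 fold change was −0.04 without a filter, −0.02 with a mean CPM filter, −0.0044 without the most abundant genes, −0.01 in the estimated counts and −0.02 without sex as a covariate. The count of genes called at day 0 fell from 10023 to 6260 with all 14 cultures in 1 fit. In cartilage 544 genes were called, against 357 with DESeq2 and 1044 without a filter. For the interaction of genotype and sex, 1 gene was called, against 33 without a filter, 0 without the most abundant genes and 2 in the estimated counts. For the interaction of genotype and day, 0 members were called, and 1 (Gdf6) with DESeq2. CPM from plain column totals moved 3 of 54 levels by more than 1 SD, all in control cultures at day 0: Bmp2 to 9.62, Bmp5 to 56.9 and Gdf10 to 49.1 CPM. Depth limits Gdf6 in cartilage, where the floor of 3 counts was up to 2.73 CPM.

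Same-numbered samples of the 2 genotypes were checked for shared deviations from their group means. Their correlations were −0.0635 to 0.14 in day 0 cultures, −0.145 to −0.064 in day 3 cultures and −0.0819 to 0.265 in cartilage. The sample of the same number was the best match for 1 of 3, 0 of 4 and 3 of 4. In cartilage the replicate number also follows sex, which was not removed, so the check cannot settle whether those samples were paired. With the replicate number as a block, 1 member (Gdf6, −2.07, adjusted p 0.0117) was called for the interaction of genotype and day, and 4 genes were called for that of genotype and sex. The block gave 9723 genes at day 0. Under it Bmp4 had 1.43 at day 3 (adjusted p 0.0939) and a change of 1.03 in cKO cultures (adjusted p 0.111), and it was called at day 0 (0.44, adjusted p 0.0279). Bmp7 was called for the change in cKO cultures (−1.43, adjusted p 0.0354).

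Leaving out 1 library at a time gave 362 to 630 genes and 0 to 1 members called in cartilage. It gave 1591 to 4051 genes and 0 to 2 members called for the interaction of genotype and day, the most genes without cKO day 3 replicate 4, and 1 to 6 genes for that of genotype and sex. Members whose sign changed ranged at day 0 from −0.02 to 0.13 (Bmp2). At day 3 the ranges were −0.29 to 0.46 (Bmp2), −0.53 to 1.25 (Bmp7), −0.04 to 0.83 (Gdf6) and −0.45 to 0.15 (Gdf10). In cartilage they were −0.04 to 0.74 (Bmp3), −0.08 to 0.14 (Bmp4) and −0.50 to 0.06 (Bmp7). For the interaction with day they were −0.38 to 0.35 (Bmp2) and −0.09 to 0.49 (Gdf10), and for that with sex −0.96 to 0.73 (Bmp3). The cause of these changes was not tested.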
